A study of Arabidopsis thaliana with 21 samples.

Results

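Leaves fed PAP together with LiCl were compared with leaves fed LiCl alone, over all genes measured. PAP is 3'-phosphoadenosine 5'-phosphate, and LiCl inhibits SAL1, the phosphatase that degrades it, so the pair asks what fed PAP adds when its breakdown is inhibited. The 6 libraries compared, of 21 in the series, were polyadenylated RNA from leaves cut off 35-day-old plants, Arabidopsis thaliana F1 hybrids of Col-0 and Ler, supplied through the cut petiole. Libraries 10, 11 and 12 were fed 100 mM LiCl. Libraries 13, 14 and 15 were fed 100 mM LiCl with 100 µM PAP. The other groups used below, each of 3 libraries, had buffer alone (control), PAP, 1 mM ATP, PAP + ATP, or PAP + ATP + LiCl, at the same labelled doses. Solutions were made in the same infiltration buffer, and no plant carried a mutation in the pathway. The PAP dose is uncertain, because the treatment notes give 1 mM or 100 mM where the sample labels give 100 µM, and the feeding time is not given in the sources used here. LiCl acts on more than SAL1, no PAP content was measured in the files used here, and the labels do not say whether libraries of a group came from separate plants, so p-values below measure only the spread between these libraries.

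SAL1 sits in chloroplasts and mitochondria and removes the 3' phosphate from PAP, a by-product of sulfation by sulfotransferases that use PAPS as donor. When SAL1 is inactivated by oxidative stress, PAP accumulates and inhibits 5'-3' exoribonucleases. These are XRN2 and XRN3 in the nucleus, to which PAP moves, and XRN4 in the cytoplasm. XRN3 helps to end transcription by degrading the RNA still made after a transcript has been cut at its 3' end. In plants lacking this activity RNA polymerase II can continue into the next gene, which is the read-through named in the series title.

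Before any comparison, 2 libraries stood apart from the rest of their own groups. The first principal component of the 6 libraries held 55.1% of the variance and placed library 10, fed LiCl, at 55.4 and library 14, fed PAP + LiCl, at 42.1, while libraries 11, 12, 13 and 15 lay between -31.1 and -12.3. Across genes, library 10 correlated with library 14 at r = 0.976 and with libraries 11 and 12 of its own group at 0.943 and 0.946. The gene with the strongest weight on this axis, AT2G35070, stood at 23.5 and 25.0 CPM (read counts scaled to the total assigned to genes) in libraries 10 and 14 and between 0.410 and 1.38 CPM in the other 4. PAD3, the last enzyme of camalexin synthesis, read 38.9 and 66.7 CPM there, and KDR, a growth-related helix-loop-helix gene, read 0.759 and 2.89 CPM against 29.5 to 36.8 in the other 4. Summed levels of the 5 mesophyll markers were 25789 and 31213 CPM in libraries 10 and 14 and 40959 to 43447 in the other 4, and those of 5 guard cell markers were 18.6 and 18.9 CPM against 29.8 to 35.7. The other leaf markers did not set both libraries apart. Sums of 8 phloem and vasculature markers were 464 and 583 CPM in libraries 10 and 14 against 445 to 535. Those of 4 epidermis markers were 329 and 201 CPM against 256 to 405. Because 1 such library sat in each group, the axis widened the spread of both groups; results are therefore also given without libraries 10 and 14. Library 19 of PAP + ATP + LiCl, which enters the spread of the 9-library fit and remains in the fit without libraries 10 and 14, lay on the same axis: a surrogate variable fitted to the 9 libraries read -0.51, -0.40 and -0.48 in libraries 10, 14 and 19 and 0.17 to 0.33 in the other 6. With this variable in the fit, or without all 3 libraries, limma again called 0 genes, with 760 and 604 at an unadjusted p under 0.05. In bulk leaf RNA, fewer cells of a type and less RNA per cell cannot be told apart. Of the root and seed markers, SCR and SHR together read 4.204 to 10.15 CPM. PYK10 did not exceed 0.675 CPM in the LiCl libraries and had no value with PAP + LiCl. The seed marker CRA1 was not among the list entries used, so seed RNA was not assessed. Depth was 21968070 to 26590221 reads assigned to genes, so that 1 read was worth 0.0376 to 0.0455 CPM.

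**Figure D1:**
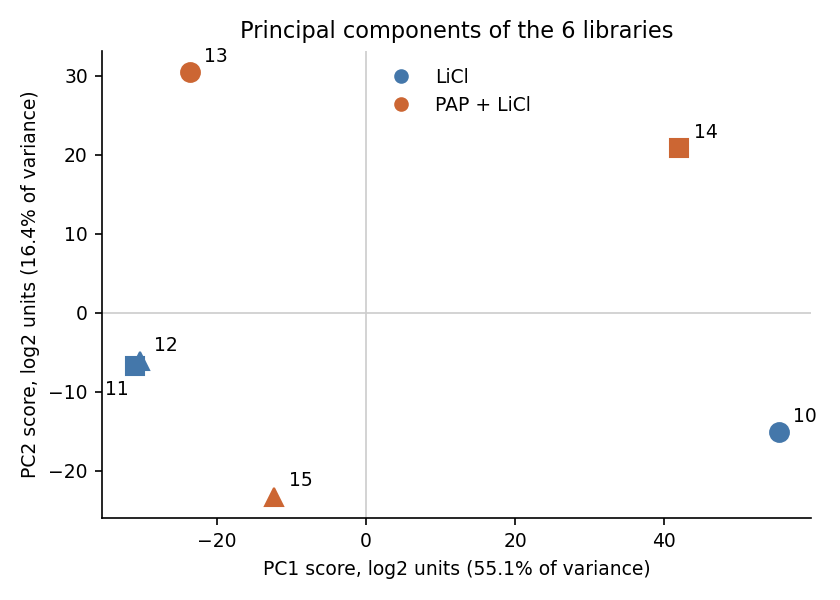
First and second principal component scores (log2 units) of the 6 libraries, from log2(CPM + 0.5) of the genes tested; colour gives the group and numbers name the libraries. Library 10 of LiCl and library 14 of PAP + LiCl lie together on the right, at 55.4 and 42.1, and the other 4 on the left.

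PAP added no change that passed the test at the level of single genes. Of 16766 genes tested with limma, 0 (0%) had a Benjamini-Hochberg adjusted p under 0.05, the lowest being 0.999988. At an unadjusted p under 0.05 there were 273 genes (1.63%), 122 with higher and 151 with lower levels with PAP. On the same libraries edgeR called 0 genes, with 336 at an unadjusted p under 0.05, and DESeq2 called 4, all with higher levels. The fit was narrow enough to bound most genes: the median 95% interval extended 0.53 each way on the log2 scale, and for 13160 genes (78.5%) the interval lay inside a 2-fold change in either direction. It lay inside a 1.5-fold change for 5678 genes (33.9%). Only 80 estimates (0.477%) were themselves beyond 2-fold, 52 with higher and 28 with lower levels with PAP. Changes below are log2 differences of log2(CPM + 0.5), PAP + LiCl minus LiCl, ± standard error with 3 libraries a group, and this scale understates differences of genes near 1 CPM. Every gene named below had limma's adjusted p of 0.999988 unless stated.

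A second description asked only whether the 3 libraries of a group all lay on the same side of the other 3. With PAP, 277 genes (1.65%) lay above and 734 (4.38%) below LiCl without overlap, 1011 (6.03%) in all. After median-of-ratios scaling the counts were 450 above and 515 below, so the excess of lower genes depended on the scaling. These shares are the background against which counts are set below.

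SAL1 levels overlapped fully between leaves with and without fed PAP. The gene read 120, 112 and 121 CPM in the LiCl libraries and 106, 131 and 123 CPM with PAP. The difference of 0.02 ± 0.16 had a 95% interval that ran from -0.35 to 0.38. Of the related phosphatases, AHL read 81.0, 71.1 and 63.9 CPM without and 44.1, 89.8 and 55.5 CPM with PAP (-0.25 ± 0.24), and SAL2 stayed below 2.00 CPM in all 6 libraries. XRN3, the nuclear exoribonuclease tied to termination, read 49.5, 53.7 and 45.4 CPM without and 36.6, 34.1 and 43.7 CPM with PAP. Its groups did not overlap, all 3 PAP libraries being lower, but the difference of -0.38 ± 0.17 did not pass (95% interval -0.76 to 0.01), and it was -0.30 without libraries 10 and 14. XRN2, a nuclear relative that also processes ribosomal RNA, overlapped because library 15, at 26.4 CPM, was above every LiCl library (-0.38 ± 0.28). The cytoplasmic XRN4 differed by -0.10 ± 0.15.

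Genes that make or use the sulfate donor followed no shared direction. The indole glucosinolate sulfotransferase gene SOT16 read 277, 264 and 251 CPM without and 318, 445 and 297 CPM with PAP. All 3 PAP libraries were higher, library 14 most, and the difference was 0.40 ± 0.18, or 0.26 without libraries 10 and 14. SOT12, which sulfates salicylic acid and other small molecules, differed by 0.70 ± 0.38 with overlap, and the tyrosylprotein sulfotransferase gene TPST by -0.27 ± 0.16. The PAPS kinase genes APK1 and APK2 differed by 0.14 ± 0.25 and 0.09 ± 0.25. Of the 14 genes tested in this list 8 had a positive estimate, with a median of 0.05 (-0.05 without libraries 10 and 14) against -0.06 for all genes. Without overlap, 1 (7.14%) lay above and 0 below, where the shares of all genes were 1.65% and 4.38%.

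Genes of 3' end formation and RNA decay sat slightly low as a group. Of 26 tested, 2 had a positive estimate, against 38.3% of all genes, and the median was -0.11. FPA, which promotes use of early poly(A) sites, lay above without overlap (0.24), and MTR4, a nuclear exosome helicase gene, lay below (-0.25 ± 0.17). Each was 1 of 26 (3.85%), where 1.65% of all genes lay above and 4.38% below. Without libraries 10 and 14 the list's median was 0.03. High light genes that respond to PAP in SAL1 mutants had no member without overlap: 9 of 12 had a positive estimate, with a median of 0.10, or 0.30 without libraries 10 and 14. The transcription factor genes ZAT10 and DREB2A differed by 0.20 ± 0.40 and -0.22 ± 0.39, and APX2 and ELIP2 never exceeded 0.977 CPM and were not tested. BAP1, a membrane-associated repressor of cell death, had the largest difference of the list, at 5.53, 1.97 and 3.42 CPM without and 9.97, 9.77 and 4.51 CPM with PAP (1.07 ± 0.41), with library 15 below library 10.

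Genes lying just downstream of a much more strongly expressed gene on the same strand had higher estimates than other genes. A gene was counted as a downstream tandem gene when its closest same-strand upstream neighbour ended no more than 500 bp away and its mean CPM was 10 or more times higher; positions came from TAIR10.1, and the kit did not keep the strand of the RNA. There were 356, at a median gap of 150 bp, each with a different upstream gene. Their median difference was 0.11, against -0.06 for all genes and -0.04 for 528 isolated genes with no neighbour within 2000 bp. Of the 356, 226 (63.5%) had a positive estimate. Without overlap, 25 (7.02%) lay above and 10 (2.81%) below, where the shares of all genes were 1.65% and 4.38%. By limma 0 of the 356 passed. The upstream genes themselves had a median of -0.04, 145 of them with a positive estimate, and in 242 pairs the downstream gene had the higher difference.

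The median difference was positive in the classes where the upstream gene had 10 or more times the CPM of the gene itself, and negative in the classes below; no trend was tested. Among genes with a same-strand neighbour within 500 bp, the median was -0.05 where the upstream gene was the lower (1609 genes), -0.06 at a ratio of 1 to 3 (546 genes) and -0.03 at 3 to 10 (488 genes). It was 0.07 at 10 to 30 (229 genes), 0.14 at 30 to 100 (99 genes) and 0.27 at 100 or more (28 genes). The shares lying above without overlap in those last 3 classes were 5.24%, 9.09% and 14.3%. The ratio also follows the gene's own level, whose median was 28.2 CPM in the lowest class and 1.77 CPM in the highest. With the ratio held at 10 or more, medians were 0.08, 0.13 and 0.12 for gaps under 100, 100 to 200 and 200 to 500 bp, and 0.03 and 0.01 for gaps of 500 to 1000 and 1000 to 2000 bp. Other orientations had medians near that of all genes: genes whose stronger neighbour within 500 bp lay past their own end on the opposite strand (convergent, 212) had a median of -0.06 with 1.42% above, and genes with a stronger divergent neighbour (205) had -0.05 with 2.93% above. Of genes under 5 CPM, 4105 that were not downstream tandem genes had a median of -0.05 with 2.48% above, and downstream tandem genes at 5 CPM or more had 8.49% above.

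The size of the tandem shift was not the same in the 3 PAP libraries. Relative to the median of all genes, the tandem genes stood at 0.0025, -0.17 and -0.09 on the log2 scale in libraries 10, 11 and 12, and at -0.09, 0.24 and 0.11 in libraries 13, 14 and 15. Library 13 was thus within the LiCl range and libraries 14 and 15 above it, so the groups overlapped. The median was 0.13 without libraries 10 and 14, where that of all genes was -0.01, and it ran from 0.05 to 0.19 when each library was left out. Convergent, divergent and isolated genes stayed between -0.04 and 0.07 in every library. Isolated genes had a higher median level than tandem genes, 13.2 against 2.37 CPM. Those isolated genes with a mean under 5 CPM (169) ran from -0.16 in library 10 to 0.13 in library 13. Convergent and divergent genes under 5 CPM stayed between -0.06 and 0.10. In leaves fed PAP without LiCl, which share no library with this pair, the tandem genes with values had a median of -0.01 against control, where all genes had -0.06, and 5.80% lay above without overlap against 2.67% of all genes and 6.28% of convergent genes. With ATP and no LiCl (PAP + ATP against ATP, also sharing no library), the tandem genes were the lower: their median was 0.05 against 0.11 for all genes, and 9.12% lay above without overlap against 12.9% of all genes.

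**Figure D2:**
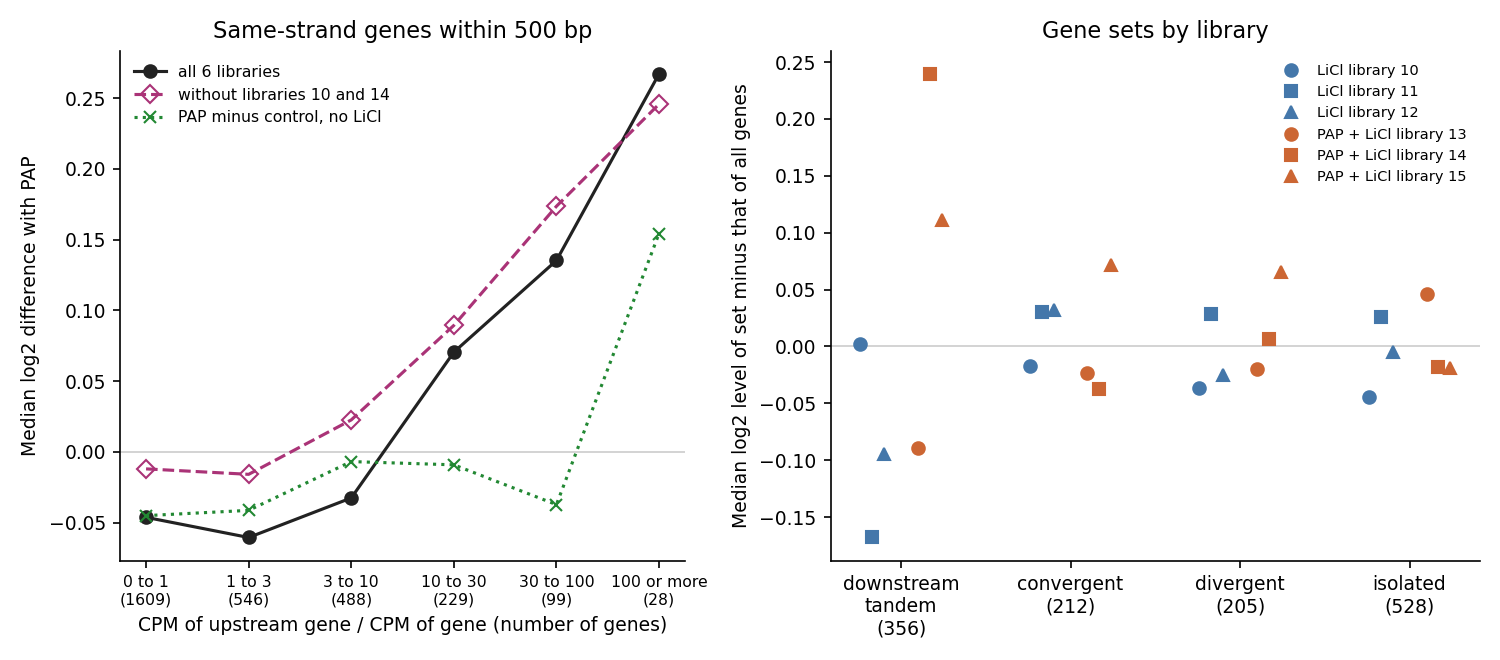
Left, median log2 difference with PAP (y axis) of genes with a same-strand neighbour within 500 bp, by the ratio of the upstream gene's CPM to the gene's own (x axis, number of genes in brackets); the median goes from -0.05 in the lowest class to 0.27 in the highest. Right, median log2 level of downstream tandem, convergent, divergent and isolated genes less that of all genes in each library; the tandem genes of libraries 14 and 15 lie above every LiCl library and those of library 13 do not.

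The 5 downstream tandem genes with the smallest p were extremes of the 356, and all had higher levels with PAP. They do not show the typical pair, since the set's median was 0.11 and 10 of its genes lay below without overlap. AT4G08160, a glycosyl hydrolase family 10 gene annotated as a putative xylanase (chromosome 4, 5159033 to 5162867, minus strand), begins 352 bp after AT4G08170. It read 3.97, 5.70 and 6.66 CPM without and 14.6, 29.8 and 16.9 CPM with PAP, every PAP library being more than 2-fold above every LiCl library, and differed by 1.78 ± 0.35, or 1.28 without libraries 10 and 14. Its upstream gene, an inositol trisphosphate kinase family gene, read 409, 732 and 573 CPM without and 670, 535 and 459 CPM with PAP, with no such difference (-0.02). GEX3, required for pollen tube guidance and usually expressed in gametes (chromosome 5, 5229513 to 5232311, plus strand), read 2.53, 0.866 and 1.47 CPM without and 3.87, 21.6 and 7.89 CPM with PAP. The groups did not overlap, but library 13 was close to library 10 and library 14 far above the rest (2.21 ± 0.55). Its upstream neighbour AT5G16010, 395 bp away, differed by 0.13. Neither rise was seen in leaves fed PAP + ATP + LiCl. AT4G08160 read 1.099, 1.62 and 2.86 CPM there, below every LiCl library, and GEX3 read 1.78, 0.990 and 2.09 CPM, within the LiCl range. Leaves fed ATP without PAP or LiCl had 4.12, 4.66 and 28.2 CPM of GEX3 and 3.43, 3.22 and 11.2 CPM of AT4G08160. These 2 genes were among the 4 that DESeq2 called, with adjusted p of 0.0142 and 0.0196; limma's adjusted p was 0.999988 for both.

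For the shorter gaps, the DNA between the genes of a pair is given from TAIR10.1 on the strand of the genes, from the base after the upstream gene's annotated end to the base before the downstream gene's annotated start. The first 3 precede the other downstream tandem genes of these 5, with gaps shorter than the median of 150 bp. The last is not a tandem pair by the 10-fold rule, its ratio being 2.54, and is shown because both genes lay above without overlap.
KCS20 to AT5G43770, 56 bp, chr5:17588734-17588789, plus strand: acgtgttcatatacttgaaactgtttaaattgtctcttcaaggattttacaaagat
GONST1 to AT2G13640, 25 bp, chr2:5687291-5687315, minus strand: ataaactgaaaaccctagccacctg
AT2G32140 to AT2G32130, 101 bp, chr2:13655526-13655626, minus strand: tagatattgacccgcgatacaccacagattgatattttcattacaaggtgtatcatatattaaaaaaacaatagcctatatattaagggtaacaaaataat
PPR336 to AT1G61860, 52 bp, chr1:22864899-22864950, minus strand: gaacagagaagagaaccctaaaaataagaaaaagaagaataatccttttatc

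Across the 25 bp gap, GONST1, a Golgi nucleotide sugar transporter gene at 50.9 CPM on average, differed by 0.16 while AT2G13640 read 1.52, 0.590 and 0.790 CPM without and 2.18, 5.65 and 2.67 CPM with PAP (1.40 ± 0.37). Across the 56 bp gap, KCS20, a fatty acid elongation enzyme gene at 171 CPM, differed by 0.18 while the proline-rich family gene AT5G43770 read 0.886, 0.866 and 1.203 CPM without and 2.14, 3.86 and 2.30 CPM with PAP (1.11 ± 0.28). Across the 101 bp gap, AT2G32140 at 22.8 CPM differed by 0.45 and AT2G32130 read 1.31, 0.433 and 1.09 CPM without and 2.09, 4.59 and 2.76 CPM with PAP (1.33 ± 0.36). In all 3 downstream genes library 14 was the highest and libraries 13 and 15 were close to each other, above every LiCl library. With PAP + ATP + LiCl, AT5G43770 read 0.169, 0.0900 and 0.368 CPM, below every LiCl library. There AT2G13640 read 1.14, 0.630 and 1.06 CPM, within the LiCl range, and AT2G32130 read 3.09, 1.49 and 2.13 CPM, above it. Unstranded counts per gene do not show where a transcript starts, so these levels need not be full-length transcripts of the downstream gene.

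In the pair on chromosome 1 the upstream gene lay above without overlap too, whereas GONST1, KCS20 and AT2G32140 overlapped between the groups. AT1G61860, a protein kinase superfamily gene, read 2.24, 2.01 and 2.63 CPM without and 5.37, 18.0 and 9.98 CPM with PAP (1.91 ± 0.42). PPR336, a pentatricopeptide repeat gene, read 11.3, 8.30 and 10.98 CPM without and 15.1, 31.9 and 24.3 CPM with PAP (1.13 ± 0.31). The order of the PAP libraries was the same in both genes, library 14 highest and library 13 lowest, and neither group overlapped. DESeq2 called AT1G61860 (adjusted p = 0.0237), which limma did not. With PAP + ATP + LiCl, AT1G61860 read 0.550, 0.405 and 1.43 CPM, below every LiCl library. PPR336 read 7.69, 4.46 and 8.67 CPM there, overlapping LiCl.

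The smallest p of all genes tested belonged to AT1G70130, a lectin-domain protein kinase gene (chromosome 1, 26409601 to 26411828, minus strand). It read 5.23, 6.96 and 5.79 CPM without and 14.1, 14.8 and 12.5 CPM with PAP, so that both groups were tight and far apart. The difference was 1.14 ± 0.20, with a 95% interval of 0.69 to 1.60, and 1.01 without libraries 10 and 14. DESeq2 called it with an adjusted p of 0.00118, while limma's adjusted p was 0.999988. Its same-strand upstream neighbour, the formin gene FH8, ended 671 bp before it at 20.6 CPM and differed by 0.29.

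FLS2, the receptor for bacterial flagellin, was among the 12 genes named for higher levels. It read 25.7, 18.6 and 16.7 CPM without and 33.5, 28.5 and 44.2 CPM with PAP, with library 14 only just above library 10 (0.78 ± 0.22); without libraries 10 and 14 the difference was 1.104. ARR6, a type-A response regulator of cytokinin signalling, read 8.35, 8.07 and 4.55 CPM without and 25.2, 20.2 and 9.15 CPM with PAP (1.25 ± 0.36). ESP (AT4G22970), encoding the separase that cuts cohesin at anaphase, differed by 0.88 ± 0.25, the cytochrome P450 gene CYP715A1 by 0.80 ± 0.20 and the transcription elongation factor IIS family gene AT2G29995 by 1.00 ± 0.24. Of the 12 genes named for higher levels, 2 were downstream tandem genes, and of the 12 named for lower levels, 0 were. Among the 12411 genes tested with a mean of 5 CPM or more, 106 were downstream tandem genes. The named genes were picked by their differences, and the contrast of 2 with 0 was not tested.

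The 12 genes named for lower levels differed by between -0.99 and -0.39. GBSS1, the starch granule enzyme that makes amylose, read 100.2, 82.0 and 100.3 CPM without and 58.8, 66.3 and 69.7 CPM with PAP. The groups did not overlap, and the difference was -0.53 ± 0.16, or -0.50 without libraries 10 and 14. LPD1, a plastid dihydrolipoamide dehydrogenase gene, differed by -0.65 ± 0.18 and the glyoxalase II gene GLX2-1 by -0.41 ± 0.13. CPL4, whose phosphatase acts on the tail of RNA polymerase II, read 8.65, 9.36 and 9.78 CPM without and 7.24, 4.204 and 6.18 CPM with PAP (-0.64 ± 0.21). The sugar transporter-like gene SFP2, the isocitrate dehydrogenase gene ICDH and the leucine-rich repeat kinase gene AT2G45340 differed by -0.82 ± 0.27, -0.39 ± 0.13 and -0.99 ± 0.27.

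**Figure D3:**
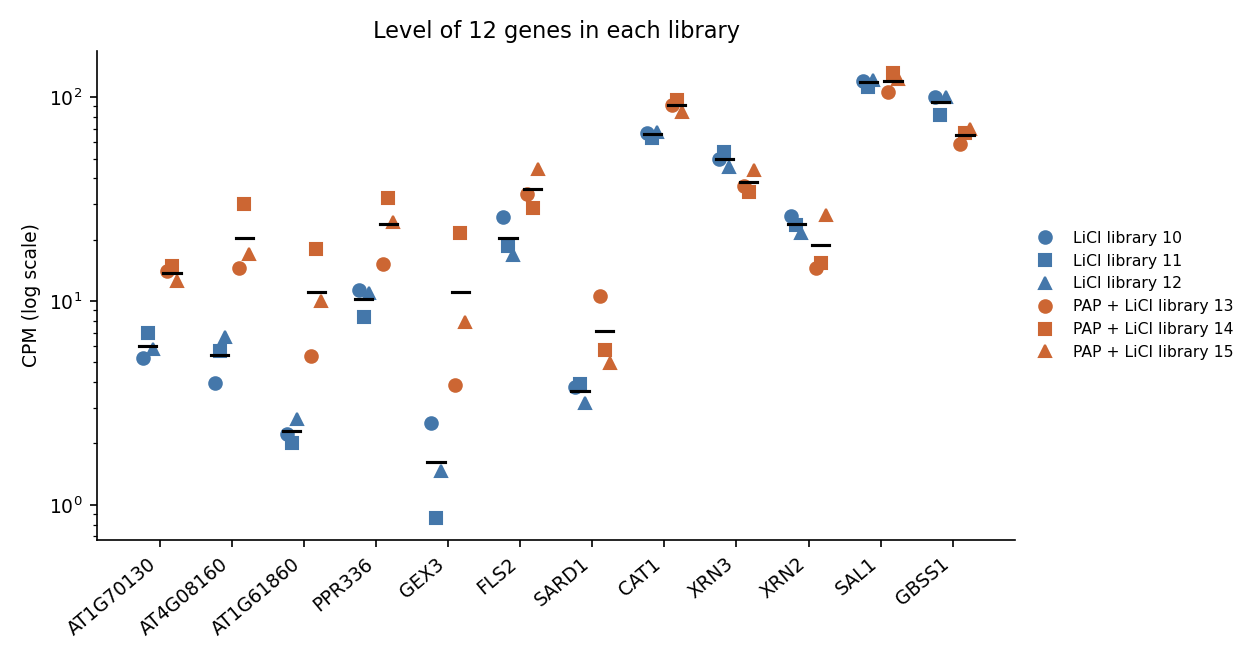
CPM on a log scale (y axis) of 12 genes in each of the 6 libraries; points are libraries and black bars group means. AT1G70130 is tight in both groups, GEX3 and AT1G61860 spread widely among the PAP libraries, SAL1 overlaps fully, and XRN3 and GBSS1 lie lower in all 3 PAP libraries.

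Immune genes tied to salicylic acid had positive estimates nearly throughout. In the list of salicylic acid synthesis and its EDS1 regulators, 13 of 13 tested genes had a positive estimate, with a median of 0.41 (0.42 without libraries 10 and 14) against -0.06 for all genes. By limma 0 passed. Relative to all genes, the list's median level was 0.05, -0.36 and -0.53 in libraries 10, 11 and 12. It was 0.20, 0.34 and -0.23 in libraries 13, 14 and 15, so library 15 lay inside the LiCl range. The summed level was highest in library 10, at 387 CPM, against 313 to 371 with PAP. SARD1, a master transcription factor of salicylic acid synthesis, was the only member without overlap (7.69% of 13 against 1.65% of all genes above). It read 3.80, 3.90 and 3.16 CPM without and 10.6, 5.73 and 4.97 CPM with PAP, highest in library 13, and differed by 0.82 ± 0.47. ICS1, the main synthesis enzyme, read 19.4, 10.8 and 19.8 CPM without and 25.2, 21.8 and 13.6 CPM with PAP (0.27 ± 0.40). PAD4, a lipase-like partner of EDS1, read 9.66, 6.45 and 7.22 CPM without and 25.8, 10.2 and 7.39 CPM with PAP (0.68 ± 0.43), mostly in library 13. EDS1 and SARD1's relative CBP60G differed by 0.19 ± 0.19 and 0.43 ± 0.34, and DMR6, a salicylic acid hydroxylase gene, by 0.62 ± 0.52.

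The downstream response was alike in direction. Of 12 tested genes of salicylic acid response and systemic immunity, 11 had a positive estimate, with a median of 0.49 (0.34 without libraries 10 and 14), and 0 lay without overlap. WRKY70 read 3.75, 2.64 and 2.18 CPM without and 8.15, 7.05 and 2.46 CPM with PAP (0.81 ± 0.50), library 15 being inside the LiCl range, and NIMIN2, an NPR1-interacting gene, differed by 0.84 ± 0.43. PR1, a defence marker below the filter, followed the 2 outlying libraries: it read 1.69, 0.0393 and 0.263 CPM without and 0.0455, 5.82 and 0.209 CPM with PAP. Relative to all genes, the median level of this list was 0.06, -0.37 and -0.54 in libraries 10, 11 and 12 and 0.27, 0.54 and -0.07 in libraries 13, 14 and 15, so library 15 lay inside the LiCl range. The cysteine-rich receptor-like kinases, a family with many members induced by salicylic acid, had positive estimates in 16 of 20 genes and a median of 0.43, or 0.57 without libraries 10 and 14. Without overlap, 0 of these kinase genes lay above and 1 (5%) below, where 4.38% of all genes lay below. Relative to all genes, their median level was 0.52 and 0.59 in libraries 10 and 14 and -0.51 to 0.06 in the other 4. CRK4 differed by 0.69 ± 0.42, and CRK42, the member below, by -0.32 ± 0.16. Of 17 pattern receptors and their oxidase genes 15 had a positive estimate at a median of 0.14 (0.30 without libraries 10 and 14), with RLP23 at 1.01 ± 0.52.

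**Figure D4:**
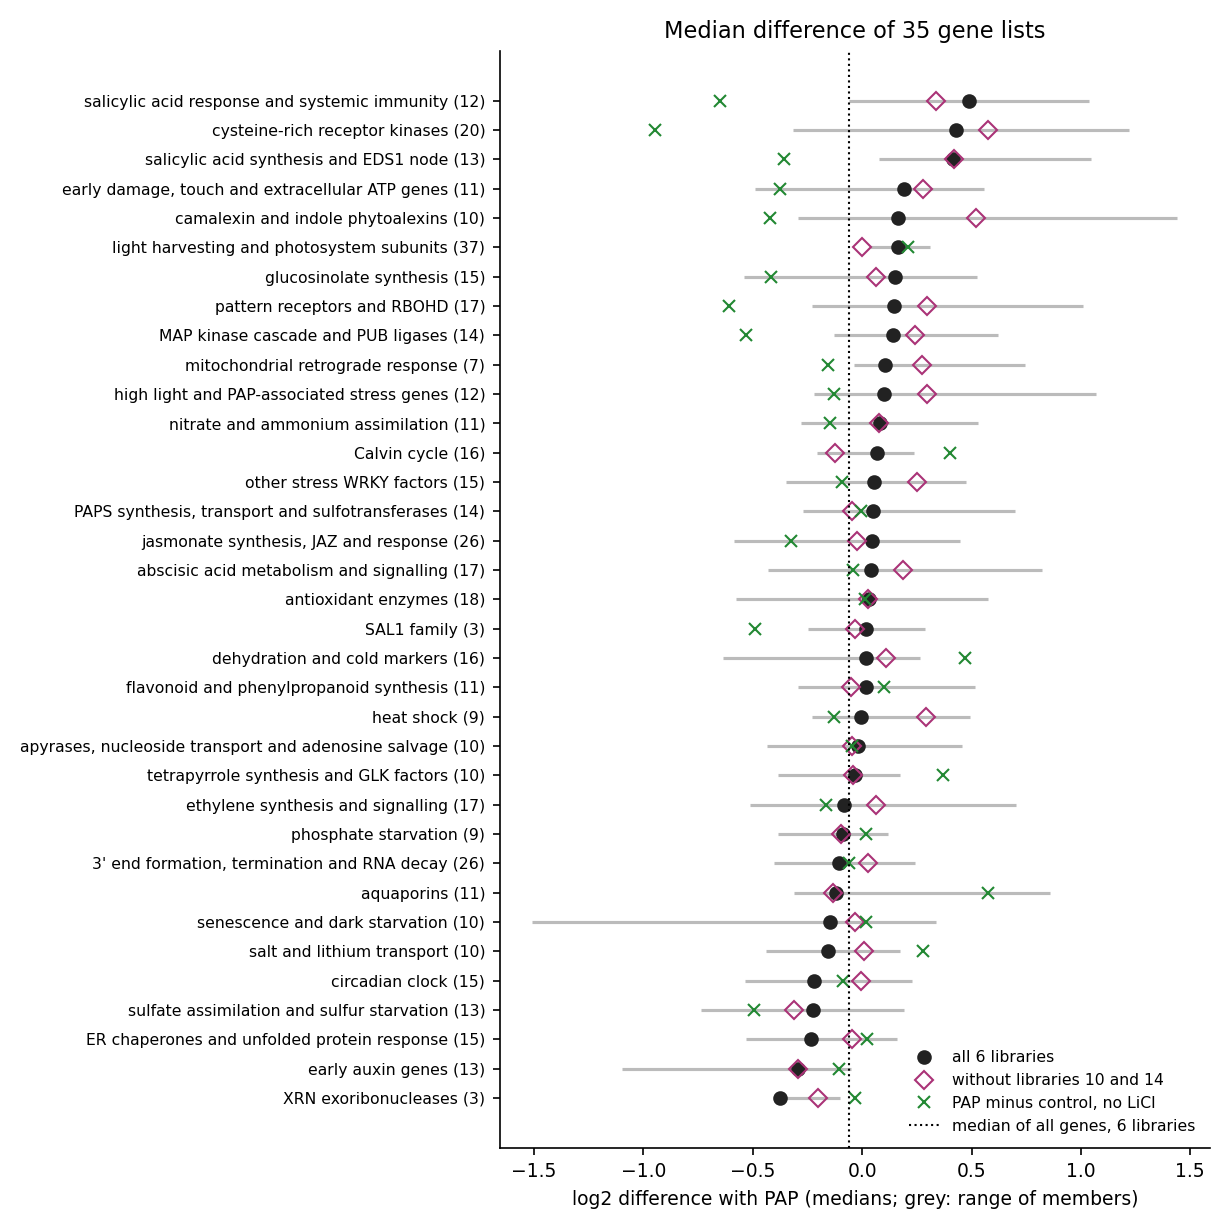
Median log2 difference with PAP (x axis) of 35 gene lists, number of genes tested in brackets, with all 6 libraries (filled), without libraries 10 and 14 (diamonds) and for PAP minus control without LiCl (crosses); grey lines span the members and the dotted line is the median of all genes, -0.06. The 3 highest medians, 0.49, 0.43 and 0.41, belong to immune lists whose crosses lie at -0.65, -0.95 and -0.36.

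Several lists outside immunity had estimates mostly on 1 side. All 37 light-harvesting and photosystem genes had a positive estimate, at a median of 0.16, but 0 lay without overlap. PSAN, a photosystem I subunit gene, read 1402, 2028 and 2350 CPM without and 2468, 2058 and 2290 CPM with PAP (0.27 ± 0.24), library 10 being the low value, and without libraries 10 and 14 the list's median was -0.0021. The 13 early auxin genes had 0 positive estimates and a median of -0.29 with or without those libraries, but 0 lay without overlap. The median level of this list relative to all genes was -0.63, 0.44 and 0.59 in libraries 10, 11 and 12. It was 0.09, -0.71 and 0.18 in libraries 13, 14 and 15, so the groups overlapped, with libraries 10 and 14 lowest. GH3.3, an auxin-conjugating enzyme gene, read 46.6, 55.6 and 53.4 CPM without and 27.9, 10.2 and 47.2 CPM with PAP (-1.10 ± 0.46). Of 15 endoplasmic reticulum chaperone genes 1 had a positive estimate, at a median of -0.23, which was -0.04 without the 2 libraries. Of 13 sulfate assimilation and starvation genes 1 had a positive estimate, at a median of -0.22 (-0.31 without the 2 libraries), and 1 (7.69%) lay below without overlap. Of all genes, 38.3% had a positive estimate and 4.38% lay below. After median-of-ratios scaling the medians were 0.23 for the photosystem list and -0.26 for the auxin list. They were -0.17 for the chaperone list and -0.16 for the sulfate list.

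Single members of some remaining lists lay without overlap between the groups. Among 18 antioxidant genes, 3 lay above without overlap (16.7%, against 1.65% of all genes) and 0 below, while the median was 0.03. CAT1, a catalase gene, read 66.9, 62.7 and 67.3 CPM without and 91.8, 97.2 and 84.8 CPM with PAP, tight in both groups (0.47 ± 0.17). CAT1 begins 95 bp after its relative CAT3 on the same strand, which read 3509, 2030 and 1479 CPM without and 1355, 2402 and 2052 CPM with PAP, and how reads shared by the 2 copies were assigned is not given in the sources used here. CAT1 is therefore also 1 of the 25 downstream tandem genes counted above without overlap. VTC5, an ascorbate synthesis gene, differed by 0.30 ± 0.15, the phenylalanine ammonia-lyase gene PAL2 by 0.39 ± 0.21 and the proline synthesis gene P5CS1 by 0.18 ± 0.21, all above without overlap. The vacuolar proton pump gene AVP1 read 153, 168 and 156 CPM without and 105, 106 and 144 CPM with PAP (-0.44 ± 0.18). The asparagine synthetase gene ASN1, induced in darkness, and the ethylene and jasmonate factor gene ERF1 also lay below without overlap, at -0.91 ± 0.35 and -0.57 ± 0.22. PAL2 was 1 of 11 flavonoid and phenylpropanoid genes tested (9.09%) and P5CS1 1 of 16 dehydration and cold genes (6.25%). AVP1 was 1 of 10 salt transport genes (10%), ASN1 1 of 10 senescence genes (10%) and ERF1 1 of 26 jasmonate genes (3.85%). Each was the only member of its list without overlap, where 1.65% of all genes lay above and 4.38% below. Over all 35 pathway lists 0 members passed limma.

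Whether PAP acted differently with LiCl than in buffer was asked of the interaction of PAP with LiCl over all 21 libraries. By limma 0 of 17505 genes (0%) passed, with a smallest adjusted p of 0.421 and 317 genes at an unadjusted p under 0.05; edgeR called 0 and DESeq2 4, and the typical 95% interval reached 0.92 to either side. Control and PAP libraries share nothing with this pair, and in them 2.67% of genes lay above and 4.5% below without overlap. Over 16673 genes with values in all PAP contrasts, 12 lay above in both backgrounds, 53 below in both and 27 in opposite directions. Taken over genes, which are not independent of each other, the PAP differences in the 2 backgrounds had r = -0.09. The immune lists were on opposite sides: salicylic acid synthesis had a median of 0.41 with LiCl and -0.36 in buffer, salicylic acid response 0.49 and -0.65, and cysteine-rich receptor-like kinases 0.43 and -0.95. No difference between the backgrounds was tested for a list, and 0 of their members passed the interaction test. Libraries also differed within the buffer groups. AT2G35070, the gene with the strongest weight on the axis of libraries 10 and 14, read 149, 49.8 and 2.40 CPM in control. It read 33.2, 1.70 and 152 CPM with PAP. The median within-group SD of log2 levels was 0.40 in control and 0.36 with PAP, against 0.25 with LiCl and 0.26 with PAP + LiCl. What this spread contributed to the buffer medians was not tested.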

How the data were processed

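The submitters' processing notes name Subread, featureCounts and TAIR10, without versions. The authors deposited CPM (counts scaled to the library total), per the file headers, for 21156 loci; converted back to reads, 100% came out whole (tolerance 1e-06). Loci matched TAIR10.1 for 20952 (99.0%). A locus without a value lacked it in its whole group; 19084 loci had values in both groups. Columns name the group but no replicate, so libraries are numbered by column.

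In R 4.3.3, limma 3.58.1 (trend) was fitted to log2(CPM + 0.5) of the 9 libraries fed LiCl (LiCl, PAP + LiCl, PAP + ATP + LiCl), for genes reaching 1 CPM in 3 or more of them and values in both groups; tests were two-sided, Benjamini-Hochberg adjusted, with a threshold of 0.05. The interaction used 21 libraries. Alternatives used edgeR 4.0.16, DESeq2 1.42.0 and sva 3.50.0. The tests were tried on simulated reads drawn independently for each gene. These lacked the axis shared by libraries 10, 14 and 19, so they do not show how the tests behave with it.

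Members and the 40 gene lists (35 pathway, 5 marker; 548 entries used) were chosen with earlier results of these data known, so patterns seen earlier gain no independent weight here. Named genes were the 12 with the smallest p in each direction with a mean of at least 5 CPM and no overlap (as none passed), the 3 smallest p of each list, the SAL1, XRN and salicylic acid synthesis genes with a few pathway and stress genes, and the 5 downstream tandem genes with the smallest p; the text prints a subset. Genes outside these rules (AT2G35070, KDR, FPA, CAT3 and other upstream neighbours) were named after their values were seen.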

Additional observations from a re-analysis of the deposited data

Results flagged for a closer look

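Among the named genes, 2 had PAP effects of opposite sign with and without LiCl, with no overlap between groups in either background. AT1G70130, the lectin-domain kinase gene, read 14.1, 11.1 and 21.2 CPM with PAP and 23.7, 60.1 and 28.4 CPM in control, a difference of -1.17, against 1.14 in leaves fed LiCl. The difference between the backgrounds was 2.32 ± 0.44 on the log2 scale, and limma's adjusted p for it was 0.506. In the PAP + ATP + LiCl libraries it read 7.35, 9.18 and 12.2 CPM, between the LiCl and the PAP + LiCl libraries. SARD1, the salicylic acid regulator, read 5.63, 1.62 and 3.28 CPM with PAP and 5.91, 12.3 and 7.53 CPM in control (-1.25), against 0.82 with LiCl. Its difference between the backgrounds was 2.06, with limma's adjusted p at 0.999784. Neither gene's difference thus passed the test of the interaction. The outlier test was not applied, since groups held 3 libraries.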

How the results depend on the processing

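PAP + LiCl against LiCl gave 0 genes under every alternative except DESeq2 (4), and the interaction likewise 0 except DESeq2 (4). Leaving out each library in turn gave 0 to 0 for both, with 177 to 521 and 162 to 866 genes at an unadjusted p under 0.05. Added after the data were seen, fits without libraries 10 and 14, without 10, 14 and 19, or with 1 surrogate variable also gave 0, with 229, 604 and 760 such genes. A fit of all 21 libraries gave 0 with 132, and 0 with 331 when each group had its own variance weight. Genes without overlap numbered 1011, and 965 after scaling, 713 at a mean of at least 5 CPM and 1221 with no filter. The median of downstream tandem genes was positive under each alternative run, from 0.02 at a ratio of 3 to 0.19 without 1 library. Without libraries 10 and 14 the estimates of SAL1 (-0.035), XRN4 (0.028) and DREB2A (0.26) changed sign; the cause was not tested. When single libraries were left out, signs changed within the ranges -0.049 to 0.11 for SAL1, -0.058 to 0.67 for SAL2, -0.0035 to 0.53 for ICS1, -0.095 to 0.26 for APK1, -0.14 to 0.30 for APK2, -0.10 to 0.65 for ZAT10 and -0.50 to 0.33 for DREB2A. DESeq2 called AT1G70130, AT4G08160, AT1G61860 and GEX3, at log2 1.27, 1.97, 2.35 and 2.88. No paired analysis was possible because the columns carry no replicate numbers of the labels. With 3 libraries a group, the median 95% interval reached 0.53 each way, which limits what could be detected.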

Other observations

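Growth, metabolism and hormone genes outside the comparisons above mostly stayed near the background. Of 26 jasmonate genes 17 had a positive estimate at a median of 0.04 (-0.02 without libraries 10 and 14). Without overlap, 0 lay above and 1 (3.85%) below, against 4.38% of all genes below. Of 15 glucosinolate genes 9 had a positive estimate at a median of 0.15, or 0.06 without those libraries. CYP79B2, the first enzyme of indole glucosinolate synthesis, differed by 0.53 ± 0.22. MYB28, a regulator of the aliphatic branch, lay below without overlap at -0.41 ± 0.20 (1 of 15, 6.67%, against 4.38% of all genes). Of 15 circadian clock genes 4 had a positive estimate at a median of -0.22, which was -0.0051 without libraries 10 and 14. Of 11 aquaporin genes 2 had a positive estimate, and 1 (9.09%, against 1.65% of all genes) lay above without overlap. This was PIP2;4, at 0.127, 1.102 and 1.24 CPM without and 1.68, 1.32 and 2.13 CPM with PAP. The 16 Calvin cycle genes had a median of 0.07 with LiCl (-0.13 without libraries 10 and 14) and 0.40 in buffer, and the 11 aquaporins -0.12 and 0.58.

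In addition, 534 loci had values only with PAP + LiCl and 467 only with LiCl. The highest mean among them was 8.27 CPM with PAP + LiCl and 9.95 CPM with LiCl, and these loci entered no test.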
